A study of Mus musculus with 16 samples.

Results

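The genes described are 10 members of the chaperone system of mouse quadriceps muscle: the small heat shock proteins Hspb1, Hspb6, Hspb7, Hspb8 and Cryab, the cytosolic chaperones Hspa8 and Hsp90aa1, the co-chaperones Dnajb1 and Bag3, and Hspa5 of the endoplasmic reticulum. They were found on the arrays by matching each probe's transcript accession to its gene symbol, which gave 14 probes for the 10 genes, among 32406 probes kept. With 1 probe for each gene they were 10 of 25196 features tested. Hspb7, Cryab, Hspa8 and Dnajb1 each had 2 probes, and the brighter one was used unless stated. Every one of the 14 probes was well above background on all 16 arrays and none was saturated, so all 10 members entered the tests.

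Quadriceps RNA came from wild-type mice (WT) and from mice labelled as knockouts of Klf15 (KO), a zinc-finger transcription factor that glucocorticoids induce. Within each genotype, some animals were injected intraperitoneally with dexamethasone (2 mg/kg), a synthetic glucocorticoid, and others with vehicle, and muscle was taken 8 h later. The 4 groups held 4 animals each and each animal had 1 single-colour array. The comparison asks how the muscle transcriptome responds to glucocorticoid and how far the response needs Klf15. No allele, strain, sex or age of the mice is given in the labels. Whole muscle was measured, so fewer cells of a type and less RNA per cell cannot be told apart.

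Chaperones bind unfolded or strained proteins and keep them from aggregating. Small heat shock proteins hold such proteins without using ATP and pass them to HSP70, whose cycle is started by J-domain proteins such as Dnajb1 and reset by nucleotide exchange factors such as Bag3. In muscle, Hspb8, Bag3 and HSP70 direct damaged filamin to autophagy at the Z-disc, Cryab and Hspb1 bind desmin and titin, and HSP90 holds the glucocorticoid receptor in its hormone-binding state. Many of these genes are switched on by heat shock factors, which bind heat shock elements near the gene's start, and Hspa5 is switched on by the unfolded protein response.

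The sequence before the start of a gene is shown for the 3 members that rose with dexamethasone, for Hspb8, whose level was lower on average in both genotypes, and for Hspa5, because these windows hold or lack the elements that stress and hormone are known to act through. RefSeq promoters of assembly GRCm38.p6 were given for 7 of the 10 members in 9 windows, and the 250 bases before each annotated start are used, written 5′ to 3′ along the gene's strand. Capitals mark heat shock elements (GAANNTTC) in Hspb1, the glucocorticoid receptor hexamer TGTTCT in Hspb8 and Dnajb1 (there read from the opposite strand), and the endoplasmic reticulum stress element (CCAAT followed after 9 bases by CCACG) in Hspa5. The Dnajb1 window shown lies inside the gene, past its upstream annotated start. Its AGAACA falls in an open reading frame that begins at an ATG within the window. This match therefore does not mark a hormone element ahead of the gene. The window before the upstream Dnajb1 start, not shown, holds no TGTTCT.
Hspb1, chr5:135887669-135887918, plus strand: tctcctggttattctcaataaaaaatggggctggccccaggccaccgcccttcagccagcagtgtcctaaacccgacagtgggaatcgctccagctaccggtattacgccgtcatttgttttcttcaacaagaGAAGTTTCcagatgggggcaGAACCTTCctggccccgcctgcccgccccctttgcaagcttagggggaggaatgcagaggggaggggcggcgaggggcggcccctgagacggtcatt
Hspb7, chr4:141420529-141420778, plus strand: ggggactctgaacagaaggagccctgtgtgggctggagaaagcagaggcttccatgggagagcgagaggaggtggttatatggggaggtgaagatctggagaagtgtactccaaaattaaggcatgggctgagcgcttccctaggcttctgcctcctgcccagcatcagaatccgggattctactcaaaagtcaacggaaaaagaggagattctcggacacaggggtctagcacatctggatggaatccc
Hspb8, chr5:116422865-116423114, minus strand: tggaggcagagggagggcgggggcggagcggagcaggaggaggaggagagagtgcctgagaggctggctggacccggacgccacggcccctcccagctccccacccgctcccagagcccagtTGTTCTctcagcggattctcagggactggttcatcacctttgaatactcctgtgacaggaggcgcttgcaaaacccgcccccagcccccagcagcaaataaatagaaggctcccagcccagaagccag
Dnajb1, downstream start, chr8:83608298-83608547, plus strand: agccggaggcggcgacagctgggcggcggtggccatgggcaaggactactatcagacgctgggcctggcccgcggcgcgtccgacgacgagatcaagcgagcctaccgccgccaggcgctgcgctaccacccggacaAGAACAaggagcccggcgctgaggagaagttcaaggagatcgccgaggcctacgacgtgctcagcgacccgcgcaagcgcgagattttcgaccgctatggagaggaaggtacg
Hspa5, chr2:34771840-34772089, plus strand: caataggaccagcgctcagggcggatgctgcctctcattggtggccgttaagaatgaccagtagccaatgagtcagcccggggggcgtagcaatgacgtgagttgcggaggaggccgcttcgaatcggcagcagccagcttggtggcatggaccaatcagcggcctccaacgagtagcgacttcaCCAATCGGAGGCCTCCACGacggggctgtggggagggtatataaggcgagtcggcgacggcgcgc

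The Hspb1 window holds 2 heat shock elements, at positions -117 to -110 and -97 to -90 counted from the start, and 4 GC boxes (CCGCCC). GAANNTTC, which reads the same on both strands, is found at least once in 6.69% of all 32851 promoters and TTCNNGAA in 7.17%. Of the other windows only the downstream start of Hspb6 holds a heat shock element, a single one at -120 to -113. The hexamer TGTTCT is found at least once in 16.1% of all promoters and the GC box in 32.7%. These shares do not count repeated matches in a promoter. The Hspb1 window is 59.2% GC, beside a median of 52.4% for all promoters. Hspb7 holds none of the motifs searched, which also included CACCC, present in 52.0% of promoters. The complete glucocorticoid response element (AGAACA followed after 3 bases by TGTTCT) is in none of the 9 windows and in 0.00913% of all promoters, and the endoplasmic reticulum stress element of Hspa5, at -65 to -47, is in 0.113%. All motifs were searched on both strands, TGTTCT lies inside the complete response element, and a match describes the letters in these windows only.

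The arrays set the frame for the values that follow. A level is the log2 processed intensity minus the array's 75th percentile, so 0 is that percentile; levels of different probes are not compared. Between 66.3% and 80.6% of probes were well above background on an array, and arrays of a group correlated at 0.933 to 0.990. Klf15 lay between 2.84 and 4.81 on the 8 WT arrays and between -1.24 and 0.68 on the 8 KO arrays, 15.6-fold lower in KO than in WT muscle with vehicle (limma adjusted p 2.62e-06) and 13.9-fold lower with dexamethasone (adjusted p 2.69e-06). The labels do not say whether the probe lies in the deleted part, and the remaining KO signal itself rose with dexamethasone (1.18, SE 0.26, adjusted p 0.01). WT dexamethasone replicate 3 and KO dexamethasone replicate 1 stand apart in neutrophil markers, whose summed level was 247 and 99.9 there and 0.207 to 1.30 on the other 14 arrays (levels on the linear scale). No neutrophil marker of 8 tested passed in either genotype. The 11 slow-fibre contractile genes tested differed between animals of a group, their median on an array running from -1.47 to 0.68 in WT vehicle, -0.26 to 1.63 in WT dexamethasone, -0.91 to 0.79 in KO vehicle and -0.85 to 1.22 in KO dexamethasone muscle. All 10 markers of skeletal muscle fibres, such as Acta1 and Myh4, were well above background on every array. Macrophage markers fell in WT muscle (4 of 9 tested, summed level 11.6 to 17.1 with vehicle and 7.55 to 10.2 with dexamethasone). In KO muscle 4 of 8 endothelial markers fell, although their summed level, 25.6 to 34.4 with vehicle and 27.7 to 36.0 with dexamethasone, overlapped. Of 8 smooth muscle and pericyte markers 2 fell and 1 rose in WT muscle, and 3 fell in KO muscle. In each genotype 1 of 6 fibroblast markers fell and 1 of 6 adipocyte markers rose. Of all features, 5.66% were lower and 5.09% higher in WT muscle, and 4.72% lower and 5.31% higher in KO muscle. The part of these cell types in the results below was not tested.

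With dexamethasone Hspb1 passed, higher, in both genotypes, Hspb7 in WT muscle and Dnajb1, on its brighter probe, in KO muscle. The dimmer Dnajb1 probe rose in both genotypes. The Hspb7 and Dnajb1 calls were kept in 3 and 5 of 16 fits that left out 1 array. For no member did the difference in response between the genotypes pass, so these calls do not show a rise limited to 1 genotype. None of the 10 members fell past the threshold of adjusted p 0.05. In WT muscle 2 of 10 members passed, beside 10.8% of all features tested (5.09% higher and 5.66% lower), and the same 2 were the members whose groups did not overlap, beside 17.1% of features. In KO muscle 2 of 10 passed, beside 10% of features (5.31% higher and 4.72% lower), and again these 2 had groups that did not overlap, beside 15.7%. Averaged over the genotypes 1 of 10 passed, Hspb1, beside 17.2% of features (8.78% higher and 8.39% lower). The median change of the 10 members was 0.17 in WT and 0.12 in KO muscle, while the median of all features was -0.07 and 0.07. The split of all calls in WT muscle depended on the scaling: 1283 features were higher and 1426 lower, against 1824 and 378 after scaling to array medians, which moved the median of all features to 0.17, and 109 and 74 with normexp background correction, which moved it to 0.13.

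**Figure D1:**
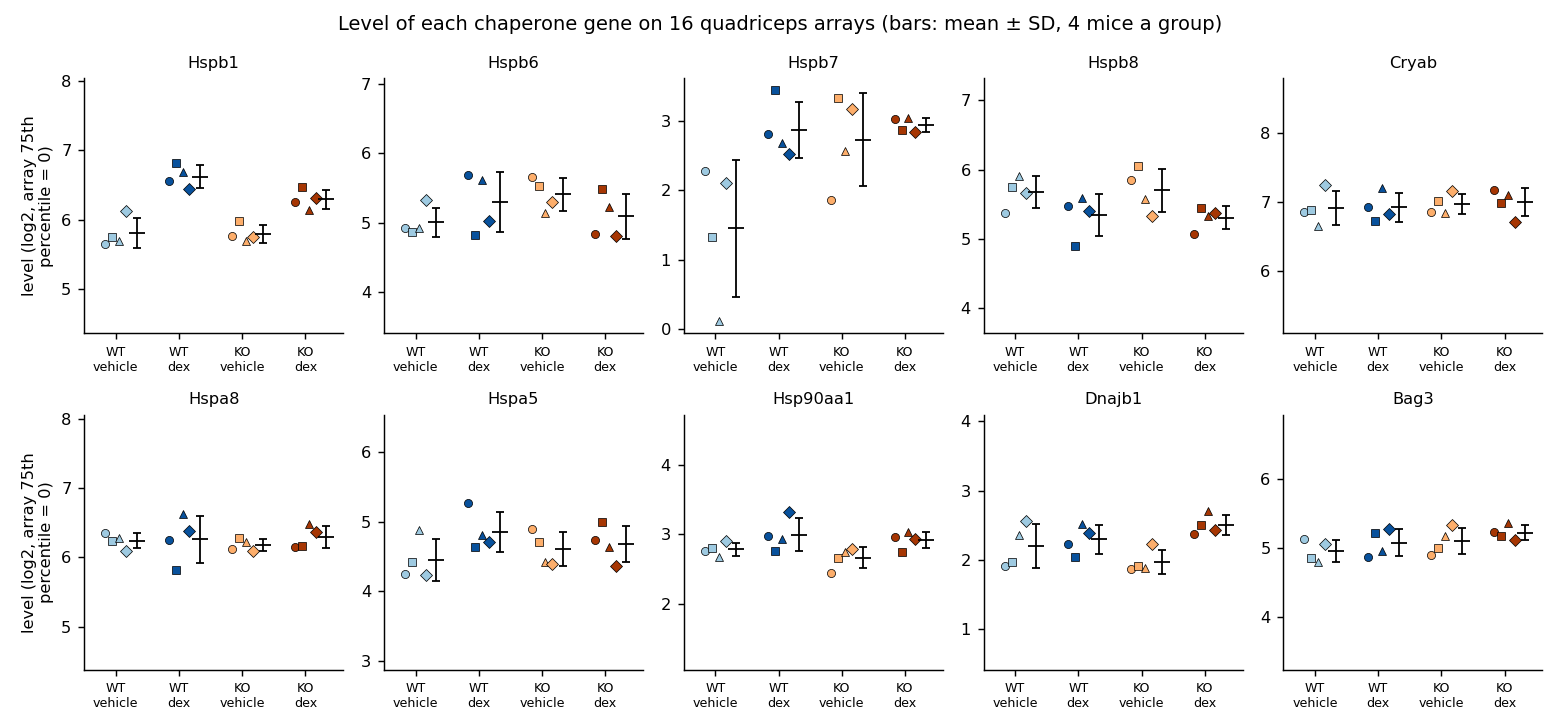
Level of each of the 10 chaperone genes on every array (vertical axis, log2 with the array's 75th percentile at 0, all panels spanning the same number of log2 units) by group (horizontal axis), with circles, squares, triangles and diamonds for replicates 1 to 4 and bars for the mean ± SD of 4 mice. Hspb1 lies at 5.65 to 6.12 in WT vehicle and 6.44 to 6.81 in WT dexamethasone muscle, Hspb7 spreads from 0.11 to 2.28 in WT vehicle muscle, and Cryab and Bag3 overlap in all groups.

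Hspb1, which encodes a small heat shock protein that binds unfolding proteins and actin filaments, had levels of 5.65, 5.75, 5.69 and 6.12 in WT vehicle muscle and of 6.55, 6.81, 6.68 and 6.44 in WT dexamethasone muscle. KO vehicle muscle gave 5.76, 5.97, 5.69 and 5.74, and KO dexamethasone muscle 6.26, 6.47, 6.14 and 6.31. Every dexamethasone array lay above every vehicle array, across genotypes too, and the 2 vehicle groups lay over each other. With dexamethasone Hspb1 was 1.76-fold higher in WT muscle (0.81, SE 0.12, limma adjusted p 0.000875). In KO muscle, at an adjusted p of 0.018, it was 1.41-fold higher (0.50, SE 0.12), and on average 1.58-fold higher (0.66, SE 0.09, adjusted p 0.000119). Of all features, 5.26% had 8 dexamethasone arrays apart from 8 vehicle arrays.

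The rise of Hspb1 was 0.31 smaller in KO than in WT muscle on the log2 scale (-0.31, SE 0.17, 95% interval -0.69 to 0.06, limma adjusted p 0.505 for the interaction), a difference that did not pass. With dexamethasone the KO level was lower by 0.33 (-0.33, SE 0.12, adjusted p 0.237), and with vehicle the difference was -0.01 (SE 0.12). Pairs of arrays on the same slide gave a rise of 0.69 in WT muscle on slide 5 and of 0.51, 0.62 and 0.70 in KO muscle on slides 4, 6 and 7. The WT call held in all 16 fits that left out 1 array (0.75 to 0.92) and was lost with normexp background correction (0.84, adjusted p 0.092). Without the 2 arrays high in neutrophil markers the change was 0.79 in WT (limma adjusted p 0.00556) and 0.51 in KO muscle (adjusted p 0.0475). The KO call held in 14 of 16 and was lost without KO vehicle replicate 3 (adjusted p 0.0551) or KO dexamethasone replicate 2 (adjusted p 0.055), without the 3 arrays the scanner software marked for evaluation (0.40, adjusted p 0.204), with median scaling, quantile normalization or the deposited values (0.36 to 0.45, adjusted p 0.0563 to 0.19), and with normexp background correction (0.38, adjusted p 0.859).

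Hspb7, a small heat shock protein of heart and skeletal muscle that associates with filamin C, had the widest spread of the 10 members between the animals of each vehicle group. Its levels were 2.28, 1.33, 0.11 and 2.11 in WT vehicle muscle and 2.82, 3.45, 2.69 and 2.53 in WT dexamethasone muscle. In KO muscle they were 1.87, 3.34, 2.56 and 3.17 with vehicle and 3.02, 2.87, 3.04 and 2.85 with dexamethasone. The WT groups did not overlap, whereas the KO vehicle animals reached as high as the treated ones. The SD between WT vehicle animals was 0.99. The probe is printed 10 times on each array, and the SD between those spots, which carries no variation between animals or labellings, was 0.0888 at the median (0.0434 to 0.129).

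In WT muscle Hspb7 was 2.66-fold higher with dexamethasone (1.41, SE 0.42, limma adjusted p 0.0491), and in KO muscle the change was 0.21 (SE 0.42, 95% interval -0.70 to 1.12, adjusted p 0.871). The interaction did not pass (-1.20, SE 0.60, 95% interval -2.49 to 0.09, adjusted p 0.468). With vehicle the KO level was 2.42-fold higher (1.28, SE 0.42, unadjusted p 0.00976, adjusted p 0.463), with overlapping groups, and with dexamethasone the difference was 0.07. The call in WT muscle lay at the threshold: it was kept only when WT vehicle replicate 1, WT vehicle replicate 4 or KO vehicle replicate 1 was left out, and lost without each of the other 13 arrays (adjusted p 0.0501 to 0.121), with the lowest change, 0.96, without WT vehicle replicate 3. On shared slides the change was 1.34 in WT muscle and -0.14, 0.28 and 1.00 in KO muscle, and KO exceeded WT with vehicle by 1.84, 0.29 and 1.76. With slide as a fixed block the WT change was 1.26 (limma adjusted p 0.24), and without the 2 arrays that stand apart in neutrophil markers it was 1.47 (adjusted p 0.0949).

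The second Hspb7 probe gave a WT change of 1.09 (SE 0.37, limma adjusted p 0.0765), again with groups that did not overlap, and a KO change of 0.33 (SE 0.37, adjusted p 0.716). On it, too, WT vehicle replicate 3 was lowest, at -1.36, and WT dexamethasone replicate 2 highest, at 1.44. The relation of Hspb7 to the slow-fibre contractile genes, taken as deviations from the group means over 16 arrays, did not pass after adjustment (Pearson's r 0.65, permutation p 0.013, adjusted over 10 relations 0.063; Spearman's rho 0.57, permutation p 0.031, adjusted 0.087). Without the 2 arrays farthest from the median, WT vehicle replicate 1 and WT dexamethasone replicate 2, r was 0.50. With group and slide both removed, which leaves 5 residual degrees of freedom over the 13 arrays that share a slide, r was 0.75 for Hspb7, a description with no test added after the data were seen. No slow-fibre gene passed with dexamethasone in WT muscle, and the list's median change was 1.35. With the slow-fibre median as a covariate the Hspb7 change was 0.83 (SE 0.39, limma adjusted p 0.175). That covariate was itself higher on average in the treated WT group, so it and the treatment cannot be told apart. The part of slow-fibre content in the Hspb7 change was not tested.

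**Figure D2:**
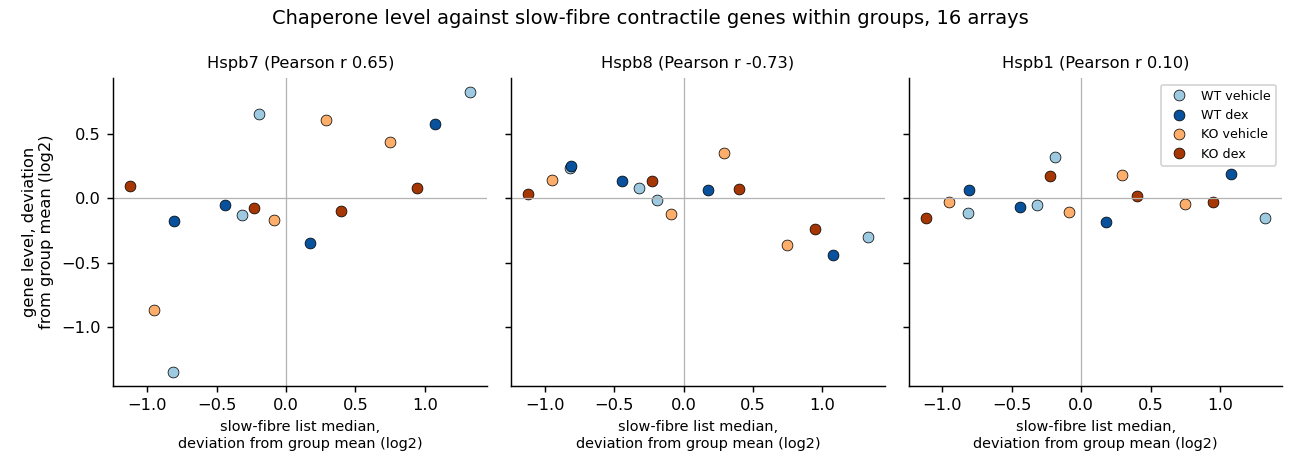
Deviation of the slow-fibre list median from its group mean (horizontal axis, log2) against the same deviation of Hspb7, Hspb8 and Hspb1 (vertical axis, log2), 1 point for each of the 16 arrays, coloured by group. Points rise to the right for Hspb7 (r 0.65), fall for Hspb8 (r -0.73) and show no slope for Hspb1 (r 0.10).

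Hspb8, the small heat shock protein that pairs with Bag3, was lower on average with dexamethasone but did not pass. Its levels were 5.38, 5.76, 5.91 and 5.67 in WT vehicle muscle and 5.47, 4.91, 5.59 and 5.41 in WT dexamethasone muscle. KO vehicle muscle gave 5.85, 6.05, 5.58 and 5.34 and KO dexamethasone muscle 5.07, 5.44, 5.34 and 5.37, so the groups overlapped in both genotypes. The differences were -0.33 in WT (SE 0.18, limma adjusted p 0.283), -0.40 in KO (SE 0.18, unadjusted p 0.0453, adjusted p 0.223) and -0.37 on average (SE 0.13, adjusted p 0.068). On shared slides it was lower in all 4 pairs, by -0.76 in WT muscle and -0.27, -0.21 and -0.40 in KO muscle. The average passed, lower, with quantile normalization (-0.45, adjusted p 0.0224), with the deposited log2 values (-0.52, adjusted p 0.00394), with slide as a random block (-0.41, adjusted p 0.0125) and with a trended variance (-0.37, adjusted p 0.0495). With the slow-fibre median as a covariate it was -0.21 (adjusted p 0.224), and the part of slow-fibre content was not tested.

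Within groups Hspb8 ran against the slow-fibre median (r -0.73, permutation p 0.0049, adjusted over 10 relations 0.049; rho -0.65, permutation p 0.013, adjusted 0.087; r -0.57 without the same 2 arrays), and r was -0.81 with slide removed as well. None of the other 9 members had a relation past 0.05 after adjustment; Hspb6 had r -0.60 (permutation p 0.03, adjusted 0.10), Bag3 0.53 (permutation p 0.056, adjusted 0.13) and Hspb1 0.10 (permutation p 0.74, adjusted 0.81). With slide removed, Hspb6 turned to 0.40, Cryab from -0.09 to 0.75 and Dnajb1 from -0.46 to 0.18, and Bag3 was at 0.85. The points share a scaling within each array, and which of the 10 relations passed changed with the scaling and with single arrays.

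Hspb6, a small heat shock protein of muscle that binds actin regulators, went opposite ways on average without passing. WT muscle gave 4.93, 4.86, 4.92 and 5.32 with vehicle and 5.69, 4.82, 5.62 and 5.03 with dexamethasone (0.28, SE 0.22, limma adjusted p 0.456). KO muscle gave 5.66, 5.53, 5.14 and 5.29 with vehicle and 4.84, 5.49, 5.23 and 4.81 with dexamethasone (-0.32, SE 0.22, adjusted p 0.489). WT dexamethasone replicates 1 and 3 lay above every WT vehicle animal, replicate 4 among them and replicate 2 below them, and the interaction was -0.60 (SE 0.31, 95% interval -1.26 to 0.06, adjusted p 0.477). On slide 5 the WT pair differed by -0.50, against the sign of the group means.

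Cryab, the αB-crystallin that protects desmin and titin, lay between 6.65 and 7.24 on all 16 arrays. Its change was 0.01 in WT (95% interval -0.31 to 0.33) and 0.02 in KO muscle (95% interval -0.29 to 0.34) with an SD of 0.15 to 0.24 within groups, and all groups overlapped. The dimmer Cryab probe gave -0.13 in WT and -0.38 in KO muscle (SE 0.15, limma adjusted p 0.153), so the probes differ in KO muscle without either passing. Cryab lies next to Hspb2 on chromosome 9, and Hspb2, a small heat shock protein of muscle, fell in WT muscle (-0.30, SE 0.08, adjusted p 0.0237), a call lost without 5 of the 16 arrays (adjusted p up to 0.0802).

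Hspa8, the constitutive HSP70 of the cytosol, had levels of 6.35, 6.24, 6.29 and 6.09 in WT vehicle muscle and of 6.25, 5.81, 6.62 and 6.38 in WT dexamethasone muscle. KO vehicle muscle ranged from 6.09 to 6.28 and KO dexamethasone muscle from 6.15 to 6.48. The treated WT animals spanned the range of the vehicle ones, the KO groups overlapped, and the change was 0.02 in WT (95% interval -0.29 to 0.33) and 0.12 in KO muscle (95% interval -0.19 to 0.43). The dimmer probe gave -0.04 and -0.13. Hsp90aa1, the inducible cytosolic HSP90, lay between 2.67 and 2.90 in WT vehicle and between 2.75 and 3.31 in WT dexamethasone muscle, and between 2.45 and 2.79 and between 2.75 and 3.03 in the same groups of KO muscle. Its change was 0.21 in WT (SE 0.12, limma adjusted p 0.303) and 0.26 in KO muscle (SE 0.12, adjusted p 0.241), and the average of 0.24 did not pass (SE 0.08, adjusted p 0.0776).

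Dnajb1, the HSP40 that delivers clients to HSP70 and is a classical heat shock factor target, depended on the probe. The brighter probe gave 1.91, 1.97, 2.36 and 2.56 in WT vehicle muscle and 2.23, 2.04, 2.51 and 2.39 in WT dexamethasone muscle, with 1.87, 1.91, 1.88 and 2.23 in KO vehicle and 2.37, 2.50, 2.71 and 2.43 in KO dexamethasone muscle. The WT groups lay over each other, and the KO groups did not overlap. The change was 0.10 in WT (SE 0.16, limma adjusted p 0.754), with its sign turned to -0.09 by normexp background correction and to -0.04 with the deposited values, and 0.53 in KO muscle (SE 0.16, a 1.44-fold rise, adjusted p 0.0468). The interaction did not pass (0.43, SE 0.22, 95% interval -0.04 to 0.91, adjusted p 0.475).

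The dimmer Dnajb1 probe rose in both genotypes. It read -1.77, -1.86, -1.48 and -1.33 in WT vehicle and -1.14, -1.31, -0.92 and -1.10 in WT dexamethasone muscle, and -1.51, -1.44, -1.65 and -1.45 and then -1.09, -1.11, -0.93 and -1.17 in the same groups of KO muscle. No vehicle array reached a dexamethasone array in either genotype, but in WT muscle the groups nearly touched. WT vehicle replicate 4, at -1.33, and WT dexamethasone replicate 2, at -1.31, were also the only WT pair on a shared slide, slide 5. That pair showed almost no rise. Fits with a slide block or without 1 array are given for the brighter probe only. In a fit of every probe on its own the change was 0.49 in WT (SE 0.12, limma adjusted p 0.0184, beside 12% of 32406 probes called), 0.44 in KO muscle (SE 0.12, adjusted p 0.0362, beside 10.4%) and 0.46 on average (SE 0.09, adjusted p 0.00173, beside 18.1%), with an interaction of -0.05 (SE 0.17). The KO call of the brighter probe was kept without WT vehicle replicate 1 or 4, WT dexamethasone replicate 2 or 3, or KO vehicle replicate 4, and lost without each of the other 11 arrays (adjusted p 0.0516 to 0.141). On shared slides the brighter probe changed by -0.52 in WT muscle and by 0.14, 0.55 and 0.63 in KO muscle; its KO change was 0.40 with slide as a fixed block (adjusted p 0.176) and 0.57 without the 2 arrays high in neutrophil markers (adjusted p 0.064).

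**Figure D3:**
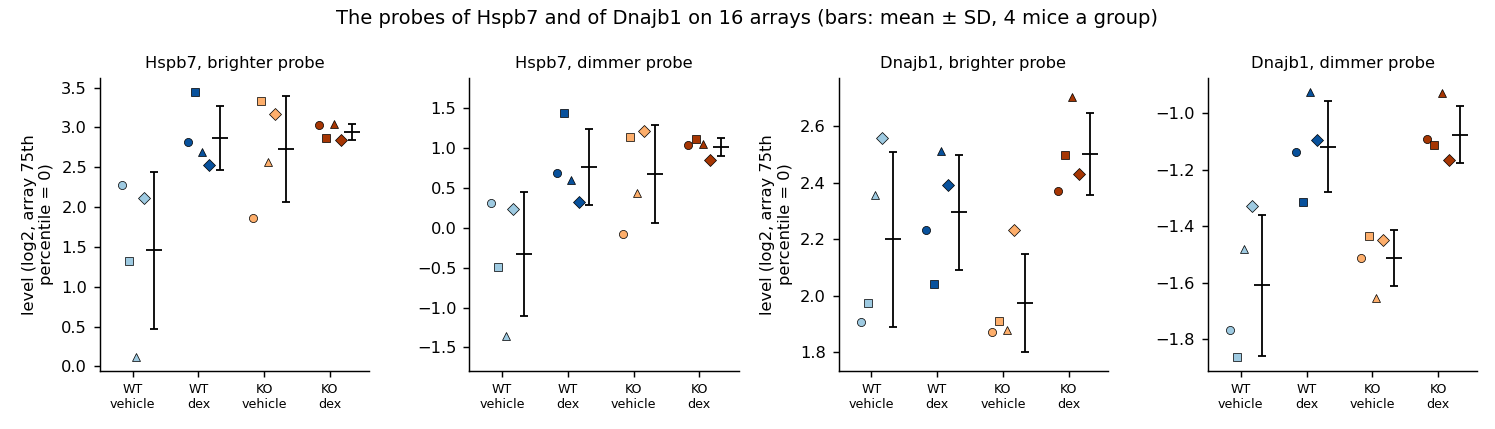
Level on each array (vertical axis, log2 with the array's 75th percentile at 0) for both probes of Hspb7 and of Dnajb1 by group, with the mean ± SD of 4 mice; panels of 1 gene span the same number of log2 units, and symbols are replicates 1 to 4. The Hspb7 probes order the animals alike in WT muscle, while WT vehicle and WT dexamethasone overlap on the brighter Dnajb1 probe (1.91 to 2.56 and 2.04 to 2.51) and not on the dimmer one (-1.86 to -1.33 and -1.31 to -0.92).

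Bag3, the partner of Hspb8 that hands clients to autophagy, had overlapping groups throughout: WT muscle gave 4.79 to 5.13 with vehicle and 4.87 to 5.27 with dexamethasone, and KO muscle 4.90 to 5.33 and 5.12 to 5.37. Its change was 0.12 in both genotypes (SE 0.12, 95% interval -0.14 to 0.39, limma adjusted p 0.586 and 0.69). Hspa5, the HSP70 of the endoplasmic reticulum, gave 4.25, 4.42, 4.89 and 4.23 in WT vehicle muscle, 5.27, 4.64, 4.81 and 4.71 in WT dexamethasone muscle, 4.90, 4.71, 4.42 and 4.40 in KO vehicle and 4.74, 5.0, 4.64 and 4.37 in KO dexamethasone muscle. A single vehicle animal, WT replicate 3, overlapped the treated WT group. Its change was 0.41 in WT (SE 0.19, adjusted p 0.213) and 0.08 in KO muscle (SE 0.19, adjusted p 0.898).

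**Figure D4:**
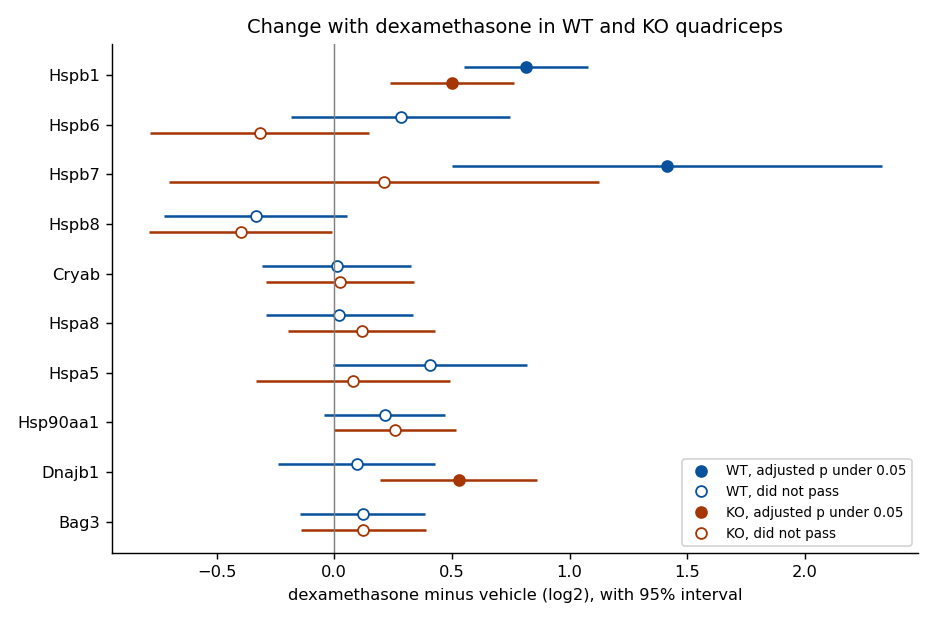
Difference between dexamethasone and vehicle (horizontal axis, log2) with its 95% interval for each of the 10 genes in WT (blue) and KO (brown) muscle; filled points passed at an adjusted p under 0.05. Hspb1 is filled in both genotypes (0.81 and 0.50), Hspb7 in WT (1.41) and Dnajb1 in KO muscle (0.53), and the other intervals reach or lie near 0.

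Loss of Klf15 itself moved none of the 10 members past the threshold. By limma 0 of 10 passed for KO against WT with vehicle (beside 0.258% of all features), with dexamethasone (beside 1.83%), averaged over treatments (beside 1.34%) and for the interaction (beside 0%), and no member's genotypes were apart without overlap under either treatment (beside 6.1% and 8.02% of features). At an unadjusted p under 0.05 there was 1 member with vehicle, Hspb7, 1 with dexamethasone, Hspb1, 1 on average, Hspb7, and 0 for the interaction. By p-value these ranked 531, 2000 and 2477 among the 25196 features, so many other features lay as low or lower. The differences between genotypes ranged from -0.23 (Dnajb1) to 1.28 (Hspb7) with vehicle and from -0.33 (Hspb1) to 0.21 (Dnajb1) with dexamethasone. The comparisons of KO with WT and of dexamethasone with vehicle share groups, so their values are not independent.

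Among the 24 tested genes of the heat shock factors and other cytosolic chaperones, 1 rose and 2 fell in WT muscle and 1 rose in KO muscle. Of all features, 5.09% were higher and 5.66% lower in WT muscle, and 5.31% higher and 4.72% lower in KO muscle. Hspa2, an HSP70 family member, was 2.05-fold higher in WT (1.04, SE 0.20, limma adjusted p 0.00487) and 2.27-fold higher in KO muscle (1.18, SE 0.20, adjusted p 0.00182), more than any of the 10 members in KO muscle. Besides Hspb2, the muscle small heat shock protein Hspb3 fell in WT muscle (-0.57, SE 0.14, adjusted p 0.0158). On average 4 of the 24 rose and 2 fell, beside 8.78% and 8.39% of all features. Besides Hspa2, Dnajb4 (0.42, adjusted p 0.0327), Hspa4 (0.22, adjusted p 0.0499) and Dnajc7 (0.19, adjusted p 0.0282) rose, calls lost without 7, 12 and 7 of the 16 arrays and with slide as a fixed block (adjusted p 0.159, 0.0929 and 0.168). Hspb3 fell on average (-0.39, adjusted p 0.0115), a call kept without each array in turn. Hspb2 fell too (-0.17, adjusted p 0.0436), a call lost without 12 arrays. With the slide block neither average passed (adjusted p 0.0607 and 0.364). The stress-inducible HSP70 genes Hspa1a and Hspa1b, named after their values were seen and so alike that a probe may read both, did not pass in WT (0.55, SE 0.39 and 0.49, SE 0.23) or KO muscle (0.16 and -0.01). Hspa1l, of the same family, was lower in KO than in WT muscle with dexamethasone (-0.87, SE 0.14, adjusted p 0.0051). With slide as a fixed block the Hspa2 change was 0.73 in WT (limma adjusted p 0.0822) and 1.16 in KO muscle (adjusted p 0.00553), and Hspb2 and Hspb3 in WT and Hspa1l no longer passed (adjusted p 0.336, 0.104 and 0.203).

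Of 15 co-chaperones of HSP90 and steroid receptors 1 rose in each genotype, beside 5.09% of all features in WT and 5.31% in KO muscle. The riser was Fkbp5, which lowers the receptor's affinity for hormone. It was 7.91-fold higher in WT (2.98, SE 0.16, limma adjusted p 3.63e-07) and 6.68-fold higher in KO muscle (2.74, SE 0.16, adjusted p 5.46e-07). Averaged over the genotypes 2 of the 15 rose, beside 8.78% of all features. Besides Fkbp5 this was Bag5 (0.22, adjusted p 0.0411), a call lost without 11 of the 16 arrays and with slide as a fixed block (adjusted p 0.169). Of the 7 tested genes of chaperone-assisted autophagy and its clients 1 passed in WT and 0 in KO muscle, beside 10.8% and 10% of all features. Flnc, the filamin that Bag3 and Hspb7 bind, rose in WT muscle (0.57, SE 0.16, adjusted p 0.0339). On average Flnc (0.35, adjusted p 0.0477) and the autophagosome protein Map1lc3b (0.21, adjusted p 0.0404) rose, beside 17.2% of all features called. Each was lost without 11 arrays and with the slide block (adjusted p 0.102 and 0.11).

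Genes of the endoplasmic reticulum, 20 tested, moved in both directions. In WT muscle 3 rose and 2 fell, beside 10.8% of all features called, and in KO muscle 1 rose and 2 fell, beside 10%. In WT muscle the J-domain protein Dnajb9 (0.51, SE 0.13, limma adjusted p 0.0236), the degradation factor Herpud1 (0.51, SE 0.14, adjusted p 0.0298) and the transcription factor Atf4 (0.46, SE 0.14, adjusted p 0.0449) rose, while the disulphide isomerase Pdia4 (-0.36, SE 0.10, adjusted p 0.0382) and the co-chaperone Dnajc3 (-0.30, SE 0.08, adjusted p 0.0321) fell. In KO muscle Herpud1 rose (0.64, adjusted p 0.00872), and Pdia4 (-0.59, adjusted p 0.00223) and the stress transcription factor Ddit3 (-0.55, adjusted p 0.0167) fell. On average 3 of the 20 rose and 2 fell, beside 8.78% and 8.39% of all features. Herpud1 (0.575, adjusted p 0.000892) and Dnajb9 (0.47, adjusted p 0.00287) rose. Pdia4 (-0.47, adjusted p 0.000415) and Ddit3 (-0.39, adjusted p 0.01) fell. The averages of Herpud1, Dnajb9, Pdia4 and Ddit3 were kept without each array in turn and with slide as a fixed block (adjusted p 0.00742 to 0.0339). Atf4 also rose on average (0.32, adjusted p 0.0347), a call lost without 12 arrays and with the slide block (adjusted p 0.0547). Dnajc3 was higher in KO than in WT muscle with dexamethasone (0.41, SE 0.08, adjusted p 0.0196), a call lost without 5 of the 16 arrays (adjusted p up to 0.0641) and with slide as a fixed block (adjusted p 0.268). None of the 8 mitochondrial chaperones tested passed by limma in any of the 7 comparisons. Across these lists 33 calls are counted, 1 for each gene past the threshold in a comparison: 15 were kept without each array in turn, among them those of Fkbp5, Hspa2 and Hspa1l, and 12 with slide as a fixed block. Flnc, Herpud1 and Dnajc3 in WT muscle were each lost without 5 of the 16 arrays, Dnajb9 without 4, Pdia4 without 8 and Atf4 without 11. Hspb3 in WT muscle was lost without WT vehicle replicate 2 (adjusted p 0.0579), and Ddit3 in KO muscle without KO vehicle replicate 1 or KO dexamethasone replicate 1. The list medians lay between 0.03 and 0.14 in WT and between -0.03 and 0.07 in KO muscle, beside -0.07 and 0.07 for all features.

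**Figure D5:**
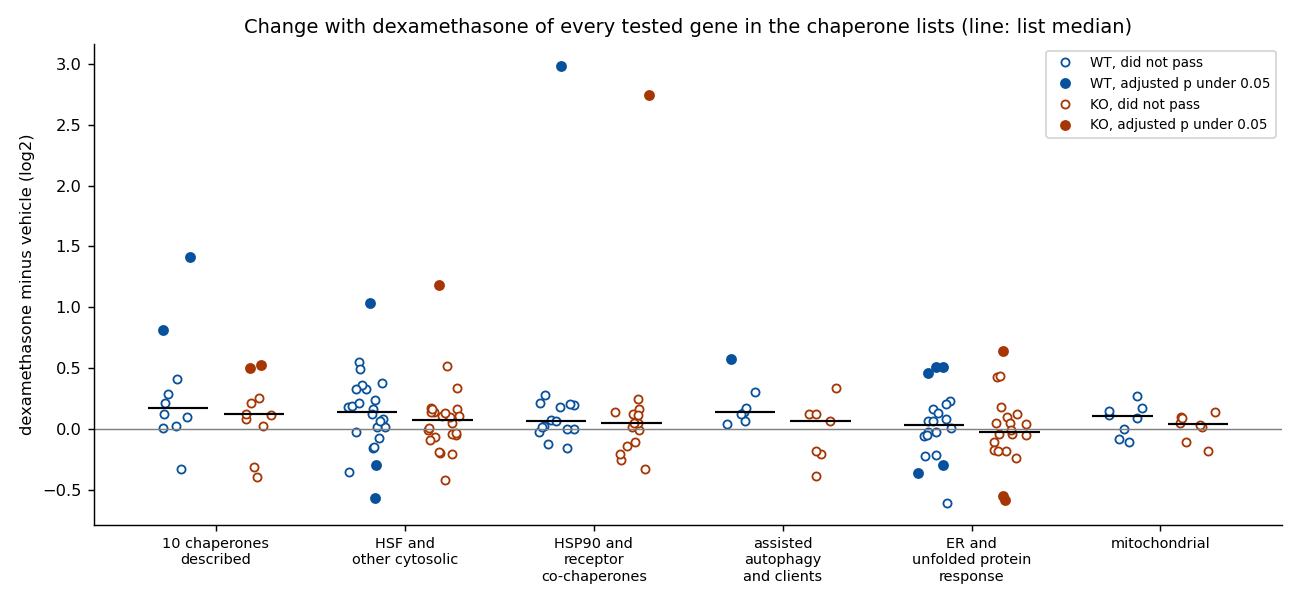
Difference between dexamethasone and vehicle (vertical axis, log2) of every tested gene in 6 chaperone lists, the 10 described genes first, in WT (blue) and KO (brown) muscle; filled points passed at an adjusted p under 0.05 and lines are list medians. Fkbp5 stands highest at 2.98 and 2.74, followed in WT muscle by Hspb7 at 1.41 and Hspa2 at 1.04 and in KO muscle by Hspa2 at 1.18.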

How the data were processed

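RNA of 16 quadriceps was amplified with a whole-transcript kit and labelled with Cy3, per the labels' protocols. The deposited scanner files hold intensity on a linear scale, background-subtracted and detrended, from Feature Extraction 10.7.3.1 with a grid of build mm9, per the file headers. A deposited series table holds log2 values whose columns have medians of 6.85 to 6.87; it ranks probes as the scanner's median signal does, and how it was centred stays unknown. The number of arrays limits the precision.

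Each array's 75th percentile of log2 processed signal, control spots aside, was set to 0. Outlier spots were left out (1 of the members' spots) and spots of a probe averaged; a probe was kept when 4 or more arrays showed it well above background. Probe accessions, stripped of versions, were looked up in a RefSeq table of assembly GRCm38.p6 (24844 of 41174 probes named), used otherwise only for chromosomes and neighbours. Its promoter table gave the printed windows; Cryab, Hspa8 and Hsp90aa1 were not matched in it. The brightest probe of a gene was used.

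Group means of all 16 arrays were fitted with limma 3.58.1 in R 4.3.3, with eBayes and two-sided p-values; Benjamini-Hochberg adjustment covered 25196 features, with a threshold of 0.05. The code was checked on simulated data. Slow-fibre relations used 100000 permutations within groups. The arrays lay on 8 slides of 1 to 3 arrays and were scanned on 2 dates, and slide was also tried as a block. The consensus correlation between arrays of a slide was 0.575, which the fit without a block leaves out. WT dexamethasone and WT vehicle arrays shared only slide 5. WT dexamethasone replicate 3, high in neutrophil markers, lay alone on slide 1 and was the only array of its scan date. Alternatives changed the scaling, background correction, filter, probe rule, block, covariate or set of arrays. Normexp used the median signal, as the files used here have no mean signal. Genes named were the 10 members, Klf15 and, of each pathway list, up to 6 genes past the threshold in a comparison; Hspa1a and Hspa1b were added after their values were seen. Members and lists were chosen with earlier results of these data known.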

Additional observations from a re-analysis of the deposited data

Results flagged for a closer look

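In 40 groups of 4 arrays, 1 for each of the 10 genes in each of the 4 experimental groups, the highest and lowest array were set against the others. A single array stood apart in 2 of them, where chance alone sets about 1 in 20 groups apart. Hspb6 on WT vehicle replicate 4 had a level of 5.32, while the next highest animal of the group was at 4.93. The gap took up 0.863 of the range of the group, above the critical 0.829. Dnajb1 (brighter probe) on KO vehicle replicate 4 had a level of 2.23 with the next at 1.91, a gap of 0.894 of the range. Without that animal the change of Dnajb1 in KO muscle was 0.61 in place of 0.53. Both arrays were kept.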

How the results depend on the processing

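With 4 animals a group, the counts of members called moved with most choices. In WT muscle (2 called) 1 member, Hspb1, was called with quantile normalization, no filter on dim probes, the mean of all probes, slide as a fixed block, only the groups of the contrast, without the 2 arrays with raised neutrophil markers, without the 3 arrays marked for evaluation, and with the slow-fibre covariate, and 0 with normexp; leaving out 1 array gave 1 to 2. In KO muscle (2 called) the count was 0 with median scaling, quantile normalization, normexp and without the 3 marked arrays, and 1 with the deposited log2 values (Hspb8, lower), no filter, slide as a fixed block and without the 2 neutrophil arrays (Hspb1 in each); leaving out 1 array gave 0 to 2. Averaged over genotypes (1 called) it was 2 with quantile normalization, the deposited values, the mean of probes, the slow-fibre covariate and a trended variance, and 3 with slide as a random block; leaving out 1 array gave 1 to 3. The counts for KO against WT and the interaction were 0 in every alternative run. Slow-fibre relations past 0.05 (1) numbered 0 with median scaling, the deposited values, without the neutrophil arrays and without the marked arrays, 2 with quantile normalization and 0 to 3 without 1 array.

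With the replicate number as a block, 1 member was called in WT (Hspb1; Hspb7 had an adjusted p of 0.0751) and 2 on average (Hspb1 and Dnajb1), and no other count changed. The numbers did not pair the animals: 5 of 24 same-numbered pairs correlated above 0.1 (-0.66 to 0.66), and 1 of 16 arrays correlated best with its own number. Over 2210 alternatives the members' 70 values were never reversed past a call, with 50 calls lost and 16 gained. Only values that had passed could lose a call: 2 in WT muscle, 2 in KO muscle and 1 averaged over genotypes. The 50 losses fall among the alternatives of those calls alone, not among all 2210. Pdia4 in WT muscle turned to 0.0387 with normexp (adjusted p 0.993); the cause was not tested. All features called ranged from 183 (normexp) to 4028 (random block) in WT, where 766 passed with slide as a fixed block, and from 405 to 5026 in KO muscle. Relative to the median of all features the Hspb1 change in WT was 0.70 to 0.89 over 5 scalings, and in KO muscle 0.17 to 0.43.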
